A study of Mus musculus with 7 samples.

Results

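The genes of the Mediator complex were examined in primary neurospheres in which Med23, one of the Mediator subunits, had been deleted, to ask whether the transcripts of the other subunits change when Med23 is lost. The members are the rows of the expression table named Med followed by a number (with or without a final l), together with Cdk8, Cdk19 and Ccnc, and there were 33 of them among 24346 genes. By textbook assignment, 11 belong to the head, 9 to the middle, 5 to the tail and 7 to the kinase module, and Med14 is the scaffold that joins head, middle and tail. Some authors place Med27, Med28, Med29 and Med30 in the tail. The neurospheres were grown from neural stem cells (NSCs) of the hippocampus of single C57/BL6 mice. The 3 Med23 CKO mice (KO_117, KO_214 and KO_218) carried Nestin-CreER and Med23 alleles flanked by loxP sites, and the 4 control mice (WT_215, WT_116, WT_213 and WT_220) were littermates, given as wild type in the labels, while the methods describe controls as littermates of other genotypes of the same cross. Both groups received tamoxifen at 200 mg/kg by gavage on 5 days, at 2 months of age by the labels (the methods give 1 month for cultures). The methods give 2 months as the age of the mice from which cultures were prepared. Recovery of 3 to 4 weeks was stated for most experiments, and the cells of both groups were cultured for 8 days with growth factors. CreER is driven by the Nestin promoter and acts only in cells that use it and in their progeny, and recombination in the cultures was not measured here. The paper reports the deletion of Med23 from qRT-PCR of primary neurospheres and from a western blot of hippocampal tissue. It does not state whether those mice were the mice of these libraries. Where a value is given for each library, the controls come first and the CKO libraries second, with the mice of each group in the order just given.

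Mediator is the large protein complex that carries signals from DNA-bound activators to RNA polymerase II. Its head and middle contact the polymerase and the general transcription machinery, its tail is the main landing site of activators, and its kinase module (cyclin C with Cdk8 or Cdk19, Med12 or Med12l, and Med13 or Med13l) binds reversibly and regulates the association with the polymerase. Med23 is a tail subunit known as the contact of Elk1, a factor at the end of the Ras and MAP kinase pathway.

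The part of Med23 that was deleted is shown first, because it bears on what an expression value of the whole gene can register. The loxP sites flank exons 5 to 7. Each exon is printed on the forward strand, from the GENCODE M21 transcript on GRCm38 (the build called mm10), at chr10:24874570-24874681 for exon 5, chr10:24875596-24875694 for exon 6 and chr10:24876940-24877041 for exon 7.
exon 5: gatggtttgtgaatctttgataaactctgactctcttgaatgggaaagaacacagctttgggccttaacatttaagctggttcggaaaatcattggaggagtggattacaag
exon 6: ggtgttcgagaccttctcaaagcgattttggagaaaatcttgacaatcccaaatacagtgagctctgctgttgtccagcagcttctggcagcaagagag
exon 7: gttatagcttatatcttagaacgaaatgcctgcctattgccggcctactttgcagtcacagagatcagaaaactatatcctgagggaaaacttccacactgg
The 3 exons lie wholly in the coding region and have 112, 99 and 102 bases. The Med23 primers of the paper's qRT-PCR match the end of exon 5 joined to exon 6, and a stretch of exon 7. That measurement therefore reads the deleted exons, unlike a value of the whole gene. Joining exon 4 directly to exon 8 changes the reading frame. In the joined sequence, 2 codons follow the last whole codon of exon 4 before a stop codon is reached, after 4 of the 70 bases of exon 8. The last 24 bases of exon 4 and the first bases of exon 8 are printed with this stop codon in capitals.
junction of exon 4 and exon 8: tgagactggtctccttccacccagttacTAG
A transcript without these exons would be read for 99 codons of the 1370 of the full protein (7.2%), yet it keeps 93.5% of the 4798 bases of the transcript. FPKM (fragments scaled to the length of the transcript and to the mapped fragments of the library) was calculated over the whole gene. It can therefore count such a transcript, where present, almost as fully as an intact one. Whether such a transcript is as stable as an intact one was not tested, so the FPKM that a full deletion would give is not known.

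Med23 transcripts were lower in Med23 CKO neurospheres, with no overlap between the groups, but the difference did not pass the test across all genes. Med23 had 11.4, 10.3, 12.9 and 10.1 FPKM in the controls, against 9.97, 9.27 and 8.12 FPKM in the CKO libraries. The controls averaged 11.2 ± 1.29 FPKM (SD, n = 4) and the CKO libraries 9.12 ± 0.934 FPKM (SD, n = 3), or 81.7% of control. The highest Med23 CKO value and the lowest control value lay close together, at 9.97 and 10.1 FPKM. Differences were tested on log2(FPKM + 1) by limma's moderated test over 14151 genes with a mean of at least 0.5 FPKM, and are given as log2 fold changes, Med23 CKO minus control, with the standard error (SE). For Med23 the log2 fold change was -0.26 (SE 0.18, 95% interval -0.68 to 0.15, limma unadjusted p = 0.175). An exact permutation test over the 35 ways to choose 3 of the 7 libraries gave p = 0.0571 on this scale and 0.0857 on FPKM, two-sided, where the smallest p possible is 0.0286. The libraries were also weighted in limma by their spread around the fit (array weights), which is not a separate measure of quality. The log2 fold change of Med23 was then -0.43 (limma unadjusted p = 0.0205). The weights stopped short of their convergence tolerance, and 6.27% of all genes were lower at an unadjusted p under 0.05 in that fit. The groups of Med23 also did not overlap after each library was centred on its median (1.37% of all genes lay below without overlap), after quantile normalization (1.29%), and after a correction of each library for GC content and transcript length (1.8%). Compared within each library with the mean log2(FPKM + 1) of the other 32 members, Med23 was lower by 0.586 ± 0.165 (SD, n = 4) in control and by 0.773 ± 0.086 (SD, n = 3) in Med23 CKO. These relative levels overlapped between the groups, with a difference of -0.19 (exact permutation test, two-sided, p = 0.143, and 0.571 after adjustment over 4 ratios). These are bulk libraries, in which fewer cells of a type and less RNA per cell cannot be told apart, and FPKM does not separate transcripts with and without exons 5 to 7.

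All 33 Mediator genes were above 0 FPKM in every library and passed the filter on low values, and 0 of them were called in either direction. At an unadjusted p under 0.05 from limma, 0 members were higher and 0 lower, beside 71 higher (0.502%) and 141 lower (0.996%) of all 14151 genes. At an adjusted p under 0.05, 0 members and 0% of all genes passed. The smallest unadjusted p among the members was that of Med23. The mean was lower in Med23 CKO for 25 members and higher for 8 (24.2%). All genes also leaned lower, with a higher mean for 43.8% of them. The median log2 fold change of the members was -0.07, beside -0.03 over all genes, and the range ran from -0.45 (Med25) to 0.13 (Med19). The counts of 25 lower and 8 higher became 22 and 11 after centring of each library on its median, 24 and 9 after quantile normalization, and 20 and 13 without mouse KO_218. Their median also moved with single libraries, to -0.19 without KO_117 (-0.03 over all genes) and to -0.03 without KO_218 (0.01 over all genes). All 3 Med23 CKO values lay below all 4 control values for 2 members, Med23 and Med31 (1.53% of all genes), and above them for 0 members (0.784% of all genes). The differences were small beside the spread between libraries: the log2 fold change was smaller than the SD of the control libraries for 28 of 33 members, as it was for 11116 of 14151 genes. The 95% interval of the difference lay within 1 on the log2 scale in either direction for 32 members (97%), all but Med25, beside 63.8% of all genes. A p that misses the threshold does not show equal levels, and the intervals had a median reach of 0.53 to either side on the log2 scale over the members and of 0.66 over all genes.

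**Figure D1:**
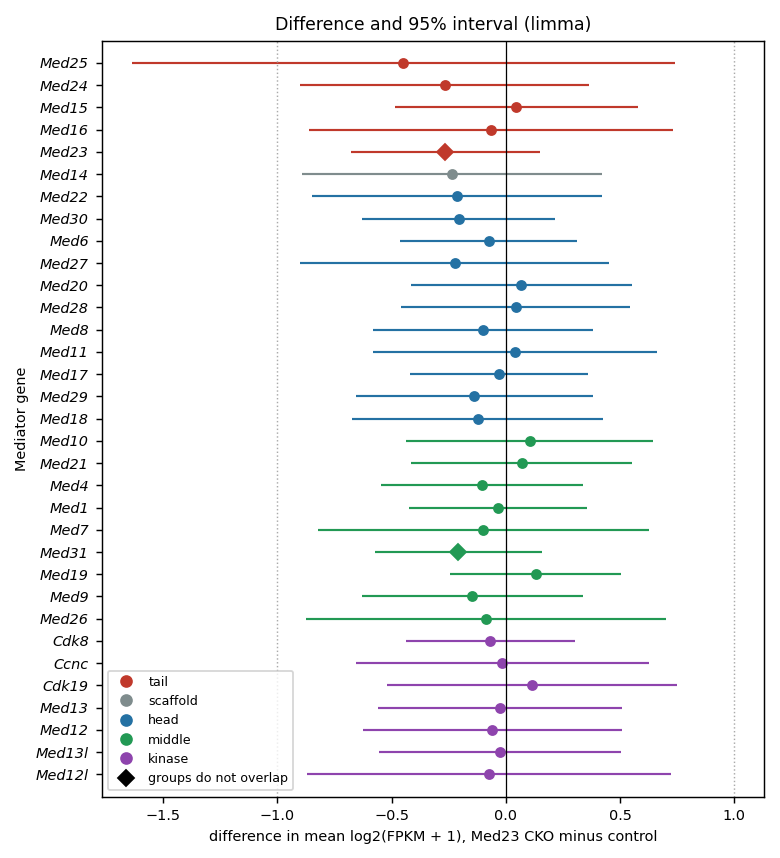
Difference in mean log2(FPKM + 1), Med23 CKO (n = 3) minus control (n = 4), for each of the 33 Mediator genes (rows, coloured by module), with the 95% interval from limma as a line and dotted lines at -1 and 1. Every interval includes 0, and only the interval of Med25 reaches beyond -1, while diamonds mark Med23 and Med31, whose groups do not overlap.

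With Med23 counted, the tail module held the lowest median difference, and it also held the most variable member. Its median log2 fold change was -0.26 with Med23 and -0.17 over the other 4 tail genes, beside -0.10 in the head, -0.09 in the middle and -0.03 in the kinase module. Med14, the single scaffold gene, stood at -0.24, below the tail without Med23. After the correction for GC content and transcript length, the tail with Med23 stood at -0.23 and Med14 at -0.26. The other 4 tail genes then stood at 0.10 (Med15), 0.03 (Med16), -0.23 (Med24) and -0.38 (Med25). The corrected medians of the head, middle and kinase module were -0.08, -0.03 and -0.04. With Med27, Med28, Med29 and Med30 placed in the tail, its median without the correction was -0.21. These medians moved with single libraries. Without mouse KO_218, the median was -0.06 for the 5 tail genes and -0.02 for the head, which reached -0.19 without KO_117. The middle turned to 0.03 without KO_214, and the kinase module to 0.06 without WT_215 and to 0.00 without KO_214, while without KO_117 they stood at -0.15 and -0.14.

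Med25, a tail subunit known to bind viral and cellular activators, had the log2 fold change farthest from 0 of all members and the widest interval. It had 44.3, 20.5, 24.5 and 62.0 FPKM in the controls, against 48.9, 22.2 and 14.0 FPKM in the CKO libraries. The libraries differed 4.43-fold in all and 3.03-fold within control, and the groups overlapped widely, with a log2 fold change of -0.45 (SE 0.51, 95% interval -1.64 to 0.74). It was -0.92 without KO_117 and -0.06 without KO_218. Med24, which forms a subcomplex with Med16 and Med23 in the tail, had 25.7, 20.0, 18.5 and 28.4 FPKM in the controls, against 27.5, 17.4 and 13.8 FPKM in the CKO libraries. As for Med25, WT_220 was the highest and KO_218 the lowest library, and the log2 fold change of Med24 was -0.27 (SE 0.27, 95% interval -0.90 to 0.37), or -0.53 without KO_117 and -0.06 without KO_218. Med16, another tail subunit, had 14.5, 8.45, 9.86 and 17.1 FPKM in the controls, against 17.3, 11.6 and 7.37 FPKM in the CKO libraries. Its group means were 12.5 ± 4.03 FPKM (SD, n = 4) and 12.1 ± 5.01 FPKM (SD, n = 3), a log2 fold change of -0.06 (SE 0.34). Med15, a tail subunit bound by the SREBP regulators of lipid synthesis, had 18.6, 14.4, 15.8 and 19.1 FPKM in the controls, against 18.9, 22.1 and 12.6 FPKM in the CKO libraries. It was the only tail gene with a higher mean in Med23 CKO, by 0.05 on the log2 scale (SE 0.23), and its highest and lowest libraries, KO_214 and KO_218, were both Med23 CKO. With library weights in limma, Med24 and Med25 had log2 fold changes of -0.51 and -0.92 and passed an unadjusted p under 0.05, together with Med23 and the head gene Med27 (-0.51), which makes 4 of 33 members beside the 6.27% of all genes in that fit.

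**Figure D2:**
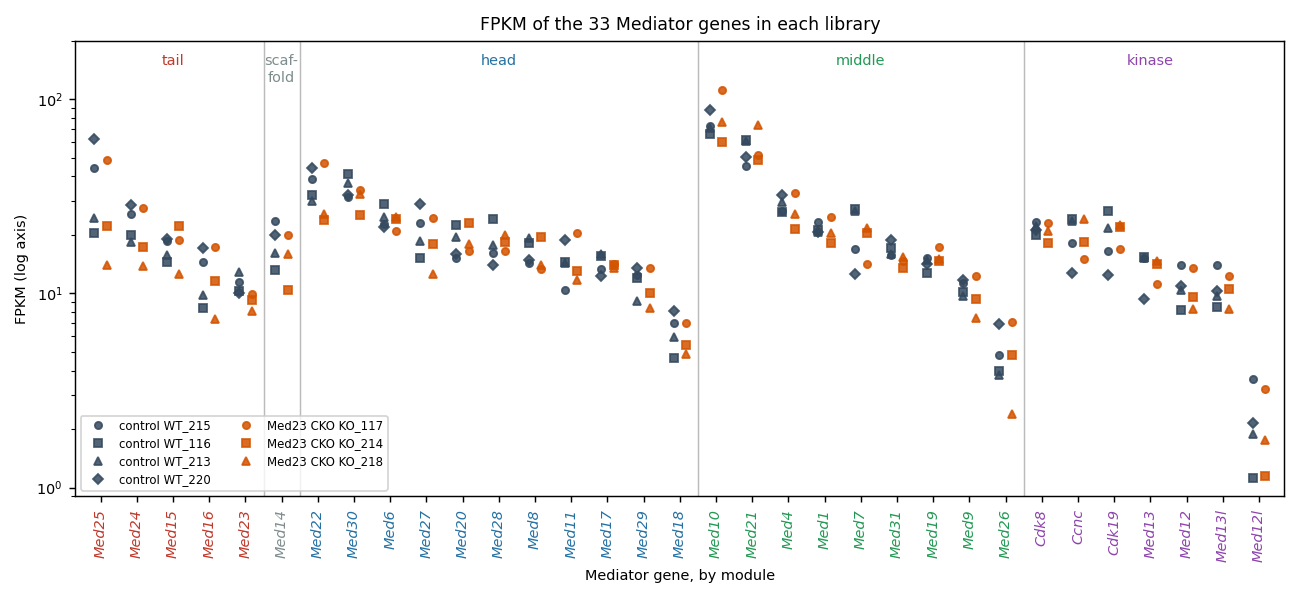
FPKM (log axis) of each Mediator gene in the 4 control libraries (dark) and the 3 Med23 CKO libraries (orange), with genes grouped by module and ordered by their control mean. The ranges of the orange and the dark points overlap for 31 of 33 genes, and the vertical spread is widest for Med25, from 14.0 to 62.0 FPKM.

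Med14, the scaffold that runs along the complex and joins head, middle and tail, had 23.5, 13.3, 16.0 and 20.0 FPKM in the controls, against 20.1, 10.4 and 15.9 FPKM in the CKO libraries. The lowest value was in KO_214 and the groups overlapped, with a log2 fold change of -0.24 (SE 0.28, 95% interval -0.89 to 0.42), which was 0.01 without KO_214.

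Among the 11 head genes, 3 had a higher and 8 a lower mean in Med23 CKO, and the log2 fold changes ran from -0.22 to 0.07. The head holds the core of the complex that touches RNA polymerase II. Med22, its most highly expressed gene, had 38.6, 32.3, 29.8 and 44.1 FPKM in the controls, against 46.9, 23.9 and 25.6 FPKM in the CKO libraries. The highest and the lowest library of Med22 were both Med23 CKO, KO_117 and KO_214, and the log2 fold change was -0.22 (SE 0.27). Without KO_117 it was -0.51, with an unadjusted p of 0.0472 from limma, the only call of a member when a library was left out, in a fit in which 2.88% of all genes were lower at that threshold. Without KO_214, the log2 fold change of Med22 was -0.04. Med27, which lies between head and tail, had 22.9, 15.2, 18.7 and 28.7 FPKM in the controls, against 24.4, 17.9 and 12.6 FPKM in the CKO libraries. Its log2 fold change was -0.22 (SE 0.29), and the groups overlapped, with WT_220 highest and KO_218 lowest.

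In the middle module, Med31 was the only member other than Med23 whose groups did not overlap. Med31 is a small subunit of the middle that is conserved from yeast to mammals. It had 15.8, 17.2, 15.9 and 18.7 FPKM in the controls, against 14.6, 13.4 and 15.4 FPKM in the CKO libraries, averaging 16.9 ± 1.38 (SD, n = 4) and 14.5 ± 0.996 FPKM (SD, n = 3). The gap between the groups was small, from 15.4 to 15.8 FPKM, and the log2 fold change was -0.21 (SE 0.16, 95% interval -0.57 to 0.16, exact permutation test p = 0.0571). The groups of Med31 overlapped once each library was centred on its median, after quantile normalization and after removal of the trend with GC content and length. Med31 lies on the reverse strand at chr11:72211724-72215592 of GRCm38. Exons of 4930563E22Rik on the other strand cover 455 bases (26.3%) of its exons, taken over all its annotated transcripts. The library kit does not mark strand, so reads of these bases cannot be assigned to one gene, although 4930563E22Rik itself was listed at only 0.572 to 1.29 FPKM. Med9, which binds Med4 in the middle, had 11.4, 10.1, 9.70 and 11.7 FPKM in the controls, against 12.3, 9.39 and 7.49 FPKM in the CKO libraries, a log2 fold change of -0.15 (SE 0.21) with overlapping groups. Med10, the Mediator gene with the highest control mean (74.6 FPKM), had 72.9, 66.3, 71.2 and 87.9 FPKM in the controls, against 111, 59.8 and 76.5 FPKM in the CKO libraries. Its highest and lowest libraries were again KO_117 and KO_214, and the log2 fold change was 0.10 (SE 0.23). In the annotation, Gm26819 on the other strand covers 92.81% of the exon bases of Med10 over all its transcripts (4168 of 4491 bases). The transcript of Med10 used for GC content has only 913 bases. Gm26819 is not among the genes of the table, so the level of Med10 may include its reads.

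The kinase module had log2 fold changes from -0.07 to 0.11 over its 7 genes and overlapping groups for each. Its median was the closest to 0 of the modules with all libraries, but the middle was closer without WT_116, WT_213, WT_220 or KO_218, with array weights and after GC correction. Of the summed squared deviations of its genes over the libraries, 1.23% lay between the groups, beside 9.78% in the tail, 7.4% in the head, 5.63% in the middle and 9.1% over all genes. These shares are a description, since most of such deviations fall within the groups even where the groups do not differ. Cdk8, the kinase that gives the module its name, was also its most evenly expressed gene. It had 23.4, 19.9, 22.2 and 21.1 FPKM in the controls, against 23.0, 18.2 and 20.9 FPKM in the CKO libraries, a log2 fold change of -0.07 (SE 0.16). Its paralog Cdk19 had 16.6, 26.6, 21.7 and 12.4 FPKM in the controls, against 16.8, 21.9 and 22.4 FPKM in the CKO libraries. Control libraries held both its highest and its lowest value, and the log2 fold change was 0.11 (SE 0.27), or -0.07 without control mouse WT_220. Neither kinase was the main form in all libraries, with Cdk19 at 0.708, 1.33, 0.979 and 0.590 of the FPKM of Cdk8 in control and at 0.732, 1.21 and 1.07 in Med23 CKO. The log2 ratio of Cdk19 to Cdk8 differed by 0.18 between the groups (exact permutation test, two-sided, p = 0.629, adjusted p = 0.971), or by 0.01 without WT_220 and by 0.38 without KO_117.

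Med12, which activates the kinase, had 14.0, 8.26, 10.4 and 10.9 FPKM in the controls, against 13.5, 9.53 and 8.26 FPKM in the CKO libraries. Its paralog Med12l was the lowest of all Mediator genes, at 3.63, 1.12, 1.88 and 2.14 FPKM in the controls, against 3.21, 1.14 and 1.75 FPKM in the CKO libraries. Med12l reached between 0.120 and 0.260 of the FPKM of Med12 in every library, so Med12 was the main form of the pair in both groups. Exons of Igsf10 on the other strand cover 15.26% of the exon bases of Med12l over all its annotated transcripts. Med13, which links the kinase module to the rest of the complex, had 15.1, 15.3, 15.2 and 9.33 FPKM in the controls, against 11.1, 14.1 and 14.8 FPKM in the CKO libraries. Control mouse WT_220 lay below all other libraries of Med13. Its paralog Med13l had 14.0, 8.49, 9.74 and 10.3 FPKM in the controls, against 12.3, 10.5 and 8.35 FPKM in the CKO libraries, which was 0.554 to 1.11 times Med13 in each library. The groups overlapped for all 4 genes, with log2 fold changes of -0.06 for Med12 (SE 0.24), -0.07 for Med12l (SE 0.34), -0.03 for Med13 (SE 0.23) and -0.03 for Med13l (SE 0.23), and those of Med13 and Med13l turned to just above 0 after centring of each library on its median. Neither ratio differed between the groups beyond the spread of the libraries, with differences of -0.02 for Med12l over Med12 (exact permutation test, p = 0.914) and of -0.00 for Med13l over Med13 (p = 0.971), each with an adjusted p of 0.971. The exact permutation test gives no interval for these ratios.

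**Figure D3:**
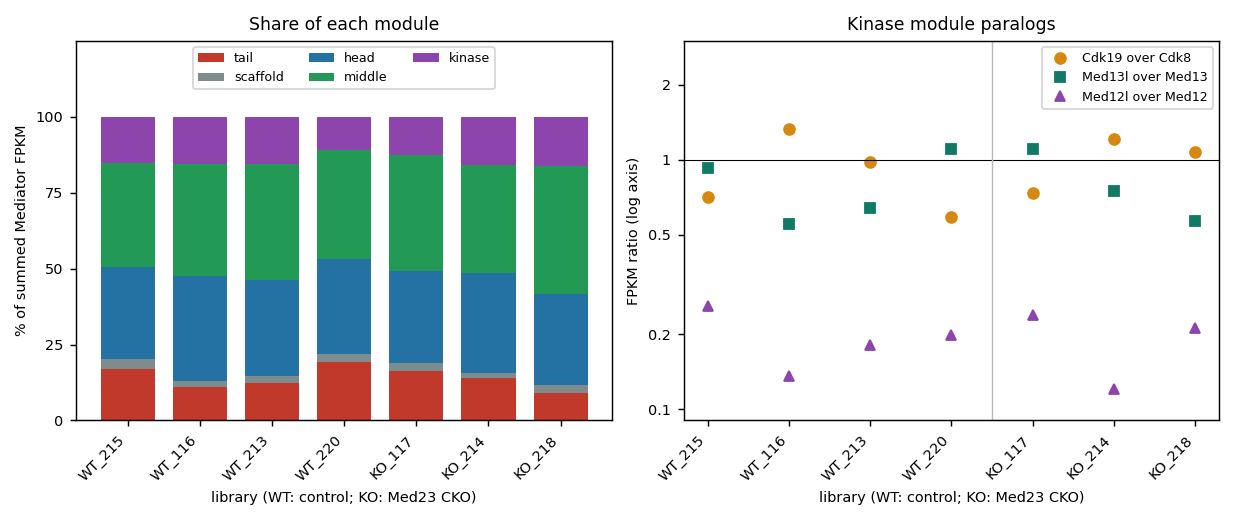
Left, share of the summed FPKM of all Mediator genes held by each module in each library (stacked bars, %). Right, FPKM ratio (log axis) of each kinase module paralog pair in the same 7 libraries, with Med12l over Med12 between 0.120 and 0.260 throughout, and the other ratios on both sides of 1 in each group.

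The 16 members not described singly had control means of 4.88 to 54.6 FPKM and log2 fold changes of -0.21 to 0.13, of which 5 were higher and 11 lower, and their smallest unadjusted p was 0.287 (Med30). Over all members the median control mean was 18.0 FPKM, above the 11.0 FPKM of all genes tested. Only Med10, with 74.6 FPKM, and Med21, with 54.6 FPKM, had a control mean above 50 FPKM.

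The members were also compared as a whole within each library. Their FPKM summed to 679.8, 666.5, 667.5 and 715.4 in the controls, against 751.0, 592.7 and 617.0 in the CKO libraries. This was 0.131% to 0.137% of all summed FPKM in control, 0.138% in KO_117 and KO_218, and 0.111% in KO_214, the lowest library. The tail held 16.9%, 11.0%, 12.2% and 19.1% of the Mediator sum in control and 16.3%, 13.9% and 9.1% in Med23 CKO, so that its share differed within each group by more than between the group means of 14.8% ± 3.81 (SD, n = 4) and 13.1% ± 3.70 (SD, n = 3). The head held between 30.1% and 34.4% of the sum and the middle between 34.2% and 41.9% over the 7 libraries. The kinase module held 15.4%, 15.6%, 15.7% and 11.0% in control and 12.6%, 15.8% and 16.3% in Med23 CKO.

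Most of the variation that the members shared lay between single libraries. Of their summed squared deviations on the log2 scale, 6.72% lay between the groups (9.1% for all genes) and 72.5% along 1 axis over the libraries (67.4% for all genes). KO_117 was the highest of the 7 libraries for 10 members, while KO_218 was the lowest for 10 and KO_214 for 8. In several libraries the deviation of a member from its mean over the 7 libraries followed the GC content of its transcript. Over the 33 members, Pearson's r of deviation with GC content was 0.305, -0.535, -0.775 and 0.747 in the controls, against 0.70, -0.002 and -0.836 in the CKO libraries. Spearman's rho was 0.357, -0.531, -0.756 and 0.742 in control and 0.666, -0.066 and -0.845 in Med23 CKO, in the same order. Both signs occurred in both groups, and over 13638 genes with a transcript in the annotation the same r ran from -0.555 in KO_218 to 0.386 in WT_220. The correlations are given as a description, since the members of a library share its preparation and depth. The tail genes Med16 (60.2% GC), Med25 (57.4%), Med15 (56.4%) and Med24 (55.5%) were among the richest in GC of all members, while Ccnc (35.5%), Med7 (40.2%), Med13 (40.5%) and Med21 (40.5%) were the poorest, and Med23 lay between them at 47.4%.

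**Figure D4:**
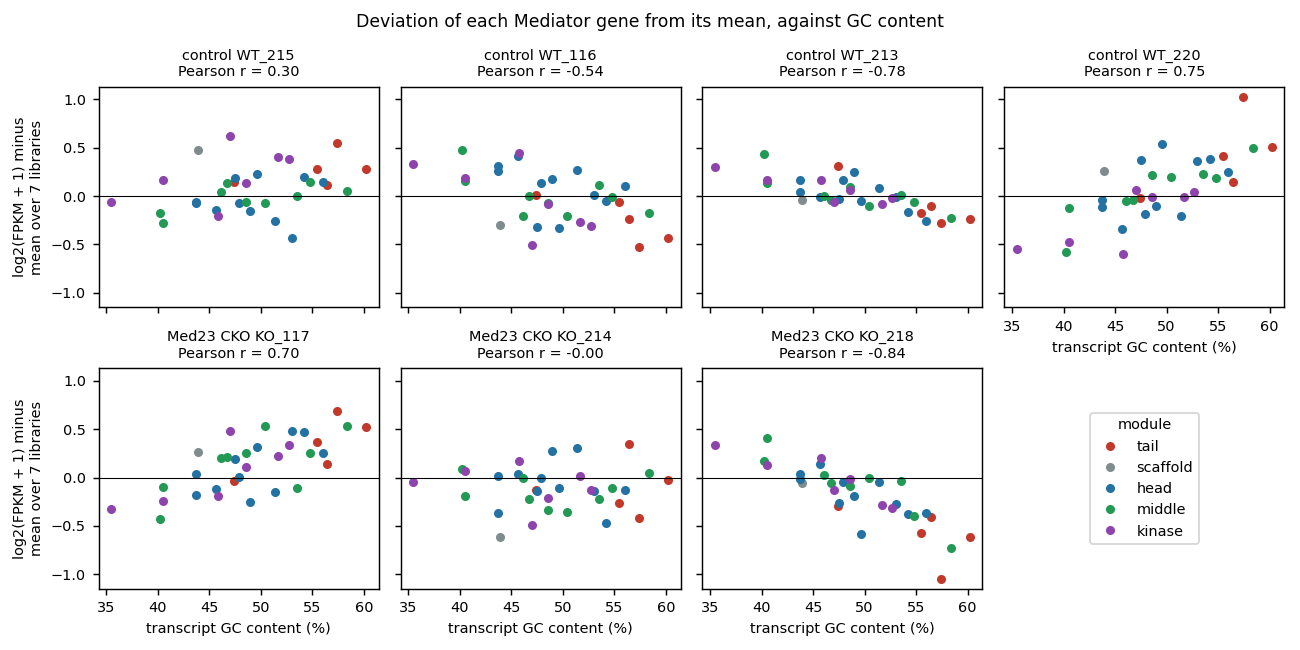
For each library, the deviation of the 33 Mediator genes from their mean over 7 libraries, in log2(FPKM + 1), against the GC content of the longest protein-coding transcript (%), coloured by module. The points slope upward in WT_220 (r = 0.747) and KO_117 (r = 0.70) and downward in KO_218 (r = -0.836) and WT_213 (r = -0.775), with 4 of the 5 tail genes, all but Med23, near the right-hand end.

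After the trend with GC content and length over all genes had been removed from each library, a step chosen after the data were seen, the median SD of the members in control went from 0.25 to 0.18 on the log2 scale, and that of all genes from 0.31 to 0.28. The members then had a higher mean in Med23 CKO for 10 and a lower mean for 23. Their median log2 fold change was -0.07, beside -0.02 over all genes. At an unadjusted p under 0.05 from limma, 0 members passed, beside 124 higher and 164 lower of 13638 genes. Med23 had 3.53, 3.53, 3.71 and 3.59 on the log2 scale in control and 3.46, 3.33 and 3.25 in Med23 CKO after this step, and was the only member whose groups did not overlap (log2 fold change -0.25, limma unadjusted p = 0.107), beside 1.8% of all genes below and 1.5% above without overlap after this step. Med25 still had overlapping groups, with a log2 fold change of -0.38.

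The cultures were checked against marker genes, with levels as the mean log2(FPKM + 1) of a list. The 12 genes of neural stem cells stood at 4.86 to 5.85 in control and 5.02 to 5.79 in Med23 CKO, the 8 of the oligodendrocyte lineage at 6.21 to 7.07 and 5.16 to 6.68, and the 6 of neurons at 2.06 to 3.23 and 2.28 to 2.76. The oligodendrocyte lineage list stood above the list of neural stem cells in 6 of 7 libraries, all but KO_117. Because the lists hold different genes, this order does not give the relative amounts of the cell types. Markers of microglia, vessels and mural cells had wider ranges in Med23 CKO than in control. The 12 of microglia stood at 1.25 to 2.92 in control and 1.33 to 4.50 in Med23 CKO, the 10 of endothelial cells at 1.18 to 2.91 and 1.03 to 3.70, and the 7 of mural cells and fibroblasts at 0.874 to 2.39 and 0.787 to 4.62, with KO_214 the highest of all libraries in each. The 15 genes of cycling cells stood at 4.26 to 6.20 in control and 3.29 to 6.57 in Med23 CKO, lowest in KO_214 and highest in KO_117. In every list 0 genes were at 0 FPKM in a library and 0 passed an unadjusted p under 0.05, beside 0.502% higher and 0.996% lower of all genes. KO_117 and KO_214, the libraries at the ends of the cycling list, also held the highest and the lowest summed Mediator FPKM, and the part of cell makeup, division and GC content in the values of the members was not tested.

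Genes that work beside Mediator were described by the same counts. Of 30 genes for elongation factors, RNA polymerase II and its initiation factors, cohesin and its loader, and factors known to act with Med23, 29 passed the filter (all but Ell3). In Med23 CKO 12 had a higher and 17 a lower mean, where 43.8% of all genes were higher. An unadjusted p under 0.05 from limma was reached by 0 of the 29, beside 0.502% higher and 0.996% lower of all genes. Groups without overlap were found for 0 of the 29, beside 0.784% above and 1.53% below of all genes. With so few genes, these counts of 0 do not set the list apart from all genes. The median log2 fold change of the 29 was -0.02, with a range from -0.27 for Hnrnpl, a splicing factor that binds Med23, to 0.55 for Ell2, an elongation factor whose 95% interval ran from -1.04 to 2.14. Elk1, the activator that contacts Med23, had 11.2, 7.40, 8.74 and 11.9 FPKM in the controls, against 12.9, 8.90 and 7.40 FPKM in the CKO libraries, with overlapping groups. Its log2 fold change was -0.02 (SE 0.25). Polr2a, the largest subunit of RNA polymerase II, had a log2 fold change of -0.17 (SE 0.22) and overlapping groups.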

How the data were processed

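RNA of 8-day primary neurospheres was measured in 7 libraries, each from 1 mouse and assigned to its group by its label. The authors used a NEBNext Ultra kit, which does not mark strand, removed adapters, mapped the reads to mm10 by Tophat and ran Cuffdiff for FPKM per gene. They deposited the FPKM of each library, with a mean for each group, and, for their own comparison, a log2 fold change, a test score, a p-value and a q-value per gene, which were not used. Read counts were not used here and could not be recovered from the low FPKM values, so the depth is unknown and the number of libraries limits the precision. No pair of libraries held identical values.

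The members and all gene lists were chosen with earlier results of these data known. Values were analysed as log2(FPKM + 1) (pseudocount of 1), which understates the change of low genes, for the 14151 genes with a mean of at least 0.5 FPKM, with limma 3.58.1 in R 4.3.3 (eBayes with trend, two-sided, Benjamini-Hochberg adjustment over these genes) on all 7 libraries. Single values and ratios were tested by exact permutation of the library labels (Python 3.11.15, numpy 2.4.6). The limma fit was also tried on simulated data in which the noise of each gene was drawn independently. In the real data, 67.4% of the summed squared deviations of all genes lay along 1 axis, which the simulation lacks. The permutation test was tried on made-up values. Members described singly are the tail genes, Med14, the kinase paralogs, members whose groups do not overlap or that have an unadjusted p under 0.05, and in each module the 2 with the largest difference and the one with the highest control mean. Alternatives were a pseudocount of 0.1, no filter or a minimum of 1 FPKM, quantile normalization, centring on the median, limma without trend, with robust empirical Bayes (statmod 1.5.0) or with array weights, a covariate from the leading digit of the mouse numbers, fits that each lacked 1 library, another assignment to modules, and ratios without a pseudocount. Removal of the trend with GC content and length (splines), available for 96.4% of the genes tested and for all 33 members, was added after the data were seen. Coordinates and sequences are those of GENCODE M21 on GRCm38. GC content is that of the longest protein-coding transcript, or of the longest transcript for genes without a protein-coding one. The paper gives fewer control libraries than the table, and all 4 were used.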

Additional observations from a re-analysis of the deposited data

Results flagged for a closer look

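Med13 in the control group was the only value of a Mediator gene that stood far from the rest of its group by Dixon's test at 95%. Mouse WT_220 had 9.327 FPKM, while the other 3 control mice had 15.1 to 15.3 FPKM, so that its gap to the nearest of them made up 0.969 of the whole range of the group. The test was run on the control values of all 33 members, and chance alone flags about 1 in 20 groups. Med13 has a transcript GC content of 40.5%, and WT_220 is 1 of the libraries in which members poor in GC lay low, a relation whose part in this value was not tested. Without WT_220 the log2 fold change of Med13 was -0.19.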

How the results depend on the processing

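No analysis paired by litter was possible, because the labels do not give the litter of each mouse. Med23 kept its direction under every alternative, with log2 fold changes of -0.32 to -0.19 in fits that each lacked 1 library, and passed an unadjusted p under 0.05 only with array weights (-0.43, unadjusted p = 0.0205), a fit whose weights stopped short of their convergence tolerance. Members lower at that threshold went from 0 to 4 with array weights and to between 0 and 1 with a library left out (Med22, without KO_117). Over all genes, 71 higher became 140 without a filter, 193 with array weights, 124 after removal of the GC and length trend, and 44 to 362 with a library left out (362 without KO_117). The 141 lower became 887 with array weights and 71 to 410 with a library left out (71 without KO_218, 410 without KO_117), and 0 to 1 passed the adjusted threshold with a library left out. Of 272 values of the other 16 members described singly, 240 kept their direction and side, 4 passed the threshold and 28 changed sign, the cause of which was not tested. Signs turned for Med13 with quantile normalization (0.0008), with centring (0.0007) and with a library left out (-0.19 to 0.09), for Med13l with centring (0.0001), GC removal (0.0184) and a library left out (-0.14 to 0.11), for Med15 with array weights (-0.25) and a library left out (-0.12 to 0.26), and for Med16 with GC removal (0.0327) and a library left out (-0.34 to 0.22). They also turned when 1 library was left out for Cdk19 (-0.0674 to 0.28), Cdk8 (-0.14 to 0.0193), Med10 (-0.13 to 0.31), Med12 (-0.24 to 0.0806), Med12l (-0.34 to 0.15), Med14 (-0.44 to 0.0065), Med27 (-0.44 to 0.0048) and Med9 (-0.32 to 0.0102), and for the log2 ratios of Med12l to Med12 (-0.11 to 0.16) and Med13l to Med13 (-0.23 to 0.21). The depth is unknown, so no limit from counting can be given.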
